A study of Homo sapiens with 12 samples.

Results

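The genes described are those that carry cells from G1 into S phase: the D-type cyclins CCND1, CCND2 and CCND3, their kinases CDK4 and CDK6, the E-type cyclins CCNE1 and CCNE2, their kinase CDK2, and CDC25A, a phosphatase that activates CDK2. Members were taken by gene symbol, as all probes that the array annotation assigns to these symbols. This gave 13 probes for 9 genes, of 47315 probes and 20045 named genes in all. CDK2, CCND2, CCNE1 and CDC25A were each read by 2 probes and the other genes by 1.

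The cells were HT144, an established human melanoma line. All were transfected with Lipofectamine2000 and kept in normal growth medium, and total RNA was taken 48 h later and hybridised to Illumina HT-12 arrays. The 3 groups differed in the siRNA: a non-targeting control (siNEG) or either of 2 siRNAs against CITED1, a transcriptional co-regulator (#1 siCITED1 and #3 siCITED1). Each group had 4 arrays from separate wells, plated on one day from one passage of one line, so spread in the tests is that of wells and not of independent experiments.

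D-type cyclins are made in response to growth signals and join CDK4 or CDK6 in early G1. These kinases phosphorylate the retinoblastoma protein, which then releases E2F transcription factors, and E2F induces E-type cyclins, CDC25A and the enzymes of DNA replication. Cyclin E with CDK2 completes the phosphorylation and starts S phase, and the inhibitors of the INK4 and CIP/KIP families oppose these kinases. In melanoma this step is often disturbed, through loss of the INK4 inhibitor CDKN2A or gain of CDK4 or CCND1.

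The deposited values are log2 expression values that were centred on each probe and each array. A value is therefore a distance from that probe's own mean over the 12 arrays. It gives no absolute level, and the value of one gene cannot be ranked against that of another. The arrays had SDs between 0.1097 and 0.1337 over all probes, with the widest in siNEG replicate 1, which also had the lowest weight (0.735) when array weights were estimated. CITED1 itself was lower with #1 (-0.64 ± 0.06 log2, SE, n = 4 against 4) and with #3 (-0.75 ± 0.06, limma adjusted p = 1.82e-07 and 6.47e-08), and no siCITED1 array overlapped with siNEG. Between the siRNAs CITED1 did not pass (0.11 ± 0.06 for #1 minus #3, limma adjusted p = 0.472).

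The siRNA #1 went with lower CDK6, CCND1 and CCND3 mRNA, none of which passed with #3. CDK6 was 2.32-fold lower, CCND1 1.53-fold lower and CCND3 1.2-fold lower than in siNEG. CDC25A was higher with #3 at both of its probes and lower with #1 at 1 of them. CDK4, CCND2, CCNE1 and CCNE2 did not pass against siNEG with either. The plot of values by array shows all 13 probes.

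**Figure D1:**
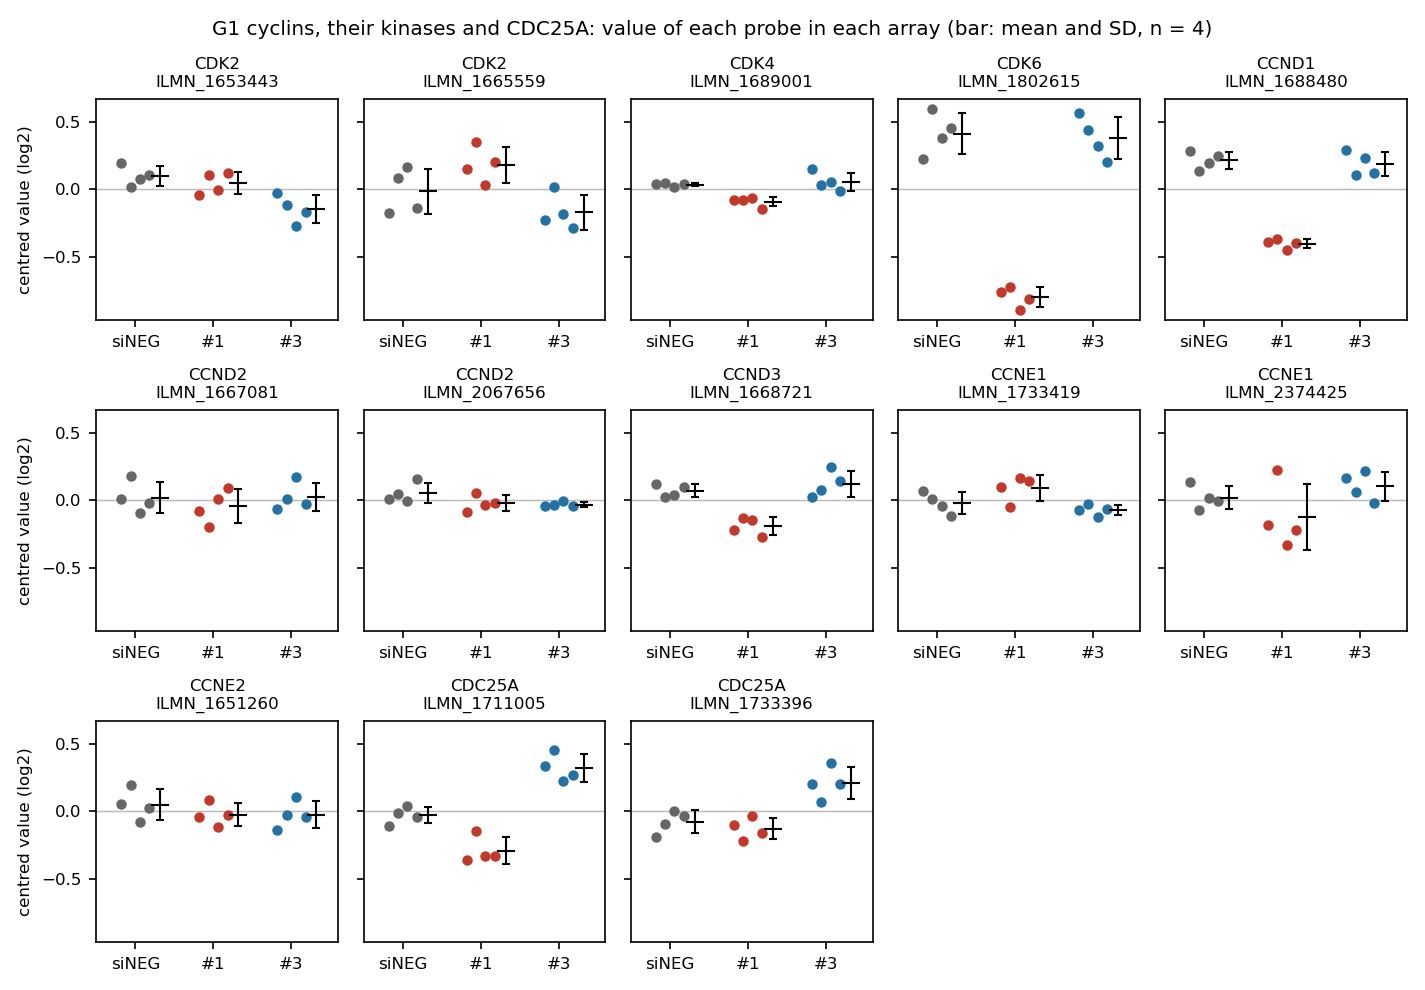
Centred log2 value (y axis) of each of the 13 probes in each of the 4 arrays of siNEG (grey), #1 siCITED1 (red) and #3 siCITED1 (blue); points are arrays in replicate order and the black bars are the mean and SD. The #1 arrays of CDK6 and CCND1 lie below all other arrays, and the #3 arrays of both CDC25A probes lie above all other arrays.

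CDK6, the D-cyclin kinase with the largest change, was read by probe ILMN_1802615. Its values were 0.22, 0.60, 0.38 and 0.46 in siNEG replicates 1 to 4. They were -0.76, -0.72, -0.90 and -0.81 with #1, and 0.565, 0.44, 0.32 and 0.20 with #3. All #1 arrays thus lay below all others, while the #3 and siNEG arrays overlapped. The difference between #1 and siNEG was -1.21 ± 0.08 log2 (SE, limma adjusted p = 2.73e-10), the 14th smallest p of all probes in that comparison. For #3 minus siNEG it was -0.03, with a 95% interval from -0.20 to 0.14 (adjusted p = 0.957). The difference between the siRNAs was -1.18 ± 0.08 (adjusted p = 2.67e-10).

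CDK4, the other partner of D-type cyclins, did not pass against siNEG. Its probe ILMN_1689001 gave 0.04, 0.05, 0.02 and 0.04 in siNEG, against -0.08, -0.08, -0.07 and -0.14 with #1 and 0.15, 0.03, 0.06 and -0.01 with #3. No #1 array overlapped with either other group, but the distance was small. The difference of #1 from siNEG was -0.13 ± 0.06 log2 (SE, limma adjusted p = 0.299, exact permutation p = 0.0286, the smallest that 4 against 4 arrays can give). The 95% interval ran from -0.25 to -0.01. The difference of #3 from siNEG was 0.02 (adjusted p = 0.96) and that between the siRNAs -0.15 (adjusted p = 0.163). In the fit to 1 value per gene the difference between the siRNAs in CDK4 did pass (adjusted p = 0.0457).

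The CDK4 promoter is shown because it holds several copies of the E-box CACGTG, letters that MYC and MITF can bind. It is from RefSeq (GRCh38.p14, chr12:57752396-57752536, minus strand, positions -226 to -86 from the start site), with the E-boxes in capitals. The stretch was chosen after the matches were seen.
CDK4: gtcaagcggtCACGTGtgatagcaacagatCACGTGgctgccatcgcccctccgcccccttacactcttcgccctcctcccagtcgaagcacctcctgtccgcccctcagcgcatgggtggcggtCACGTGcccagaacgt
Of 35116 RefSeq promoters of 300 bases each, 7.26% held this palindrome at least once. It was also found in 1 of 2 CDK6 promoters, at position 31. MYC mRNA was higher with #1 at probe ILMN_2110908 (0.36 log2, limma adjusted p = 0.00114) and did not pass at its other probe (0.18, adjusted p = 0.216). With #3 neither MYC probe passed (0.15 and -0.02, limma adjusted p = 0.417 and 0.974). MITF mRNA was higher with #1 and #3 at ILMN_2304186 (0.49 and 0.50 log2) and did not pass at its other probes. Any part of either factor in CDK4 mRNA was not tested. A match of letters is no evidence of binding.

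CCND1, the cyclin D1 gene, was read by probe ILMN_1688480. It gave 0.28, 0.14, 0.19 and 0.25 in siNEG, -0.39, -0.37, -0.45 and -0.40 with #1, and 0.29, 0.10, 0.23 and 0.12 with #3. The #1 arrays formed a tight group well below the others, and the #3 arrays spanned the siNEG range. CCND1 was lower with #1 than in siNEG by a difference of -0.62 ± 0.06 log2 (SE, limma adjusted p = 2.43e-07). With #3 the difference was -0.03 (95% interval from -0.16 to 0.10, adjusted p = 0.95). Between the siRNAs it was -0.59 ± 0.06 (adjusted p = 4.09e-07).

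CCND3, the cyclin D3 gene, was also lowest with #1. Probe ILMN_1668721 gave 0.12, 0.02, 0.04 and 0.10 in siNEG, -0.22, -0.13, -0.15 and -0.27 with #1, and 0.02, 0.08, 0.25 and 0.14 with #3. All #1 arrays were the lowest, and siNEG and #3 overlapped. The difference of #1 from siNEG was -0.26 ± 0.06 log2 (SE, limma adjusted p = 0.0114), that of #3 was 0.05 (adjusted p = 0.878), and that between the siRNAs was -0.31 ± 0.06 (adjusted p = 0.00183). Without #1 replicate 4, the lowest array, CCND3 with #1 no longer passed (-0.23, adjusted p = 0.0513).

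CCND2, the cyclin D2 gene, showed no difference that passed. Probe ILMN_1667081 spanned -0.09 to 0.18 in siNEG, -0.20 to 0.09 with #1 and -0.06 to 0.17 with #3. Probe ILMN_2067656 spanned -0.005 to 0.16 in siNEG, -0.09 to 0.06 with #1 and -0.04 to -0.01 with #3. The 4 differences from siNEG lay between -0.08 and 0.001 log2 (limma adjusted p from 0.699 to 0.999). For ILMN_2067656 with #1 the 95% interval ran from -0.20 to 0.05. All #3 arrays of ILMN_2067656 were below all siNEG arrays, at a difference of only -0.08. The 2 probes were unlike each other over the 12 arrays (r = 0.037, as a description).

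The E-type cyclins bind CDK2 late in G1. The cyclin E1 gene CCNE1 was read by 2 probes that went opposite ways, and neither passed. Probe ILMN_1733419 had means of -0.02 ± 0.08 in siNEG, 0.09 ± 0.10 with #1 and -0.07 ± 0.04 with #3 (SD, n = 4). Probe ILMN_2374425 had means of 0.02 ± 0.08, -0.13 ± 0.24 and 0.11 ± 0.11 in the same order. Against siNEG the differences with #1 were 0.11 and -0.14 log2 (limma adjusted p = 0.473 and 0.516) and those with #3 were -0.05 and 0.09 (adjusted p = 0.886 and 0.843). The wide spread of ILMN_2374425 with #1 came from replicate 2, at 0.23 where the others were at -0.18, -0.33 and -0.22. Without that array this CCNE1 probe did pass with #1 (-0.26, limma adjusted p = 0.0362) and between the siRNAs (-0.35, adjusted p = 0.00323). The 2 probes had r = -0.762 over the 12 arrays, so the mean of both would hide what each shows.

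The cyclin E2 gene CCNE2 (ILMN_1651260) lay at 0.05, 0.20, -0.08 and 0.02 in siNEG, at -0.04, 0.08, -0.12 and -0.02 with #1, and at -0.14, -0.03, 0.11 and -0.04 with #3. The groups overlapped throughout. Its differences from siNEG were -0.07 ± 0.07 log2 with #1 (95% interval from -0.22 to 0.07, SE, limma adjusted p = 0.757) and -0.08 ± 0.07 with #3 (adjusted p = 0.817). The siRNAs differed by 0.001, with an interval from -0.14 to 0.15.

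CDK2, the kinase that cyclin E activates, was lower with #3 at 1 of its 2 probes. Probe ILMN_1653443 gave 0.20, 0.02, 0.08 and 0.11 in siNEG, -0.04, 0.11, -0.002 and 0.12 with #1, and -0.03, -0.12, -0.27 and -0.17 with #3. All #3 arrays lay below all siNEG arrays, at a difference of -0.25 ± 0.07 log2 (SE, limma adjusted p = 0.0475). That call was close to the threshold. It was lost when any siNEG array was left out (adjusted p = 0.128, 0.0509, 0.0863 and 0.108 without replicates 1 to 4). It was also lost without #3 replicate 2, 3 or 4 (0.0781, 0.191 and 0.118) and without #1 replicate 2, 3 or 4 (0.0508, 0.0565 and 0.0527), which enter only through the shared estimate of the spread.

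The other CDK2 probe, ILMN_1665559, was more variable, with SDs from 0.13 to 0.17 within groups. It gave -0.17, 0.09, 0.17 and -0.14 in siNEG, 0.15, 0.35, 0.03 and 0.20 with #1, and -0.23, 0.02, -0.18 and -0.29 with #3. Neither siRNA passed against siNEG (0.20 with #1, limma adjusted p = 0.233, and -0.16 with #3, adjusted p = 0.529). The siRNAs did differ from each other, by 0.35 ± 0.08 log2 (SE, adjusted p = 0.0068), with all #1 arrays above all #3 arrays. At ILMN_1653443 that difference had the same sign and did not pass (0.19 ± 0.07, adjusted p = 0.0893), while in the fit to 1 value per gene CDK2 did pass between the siRNAs (0.27, adjusted p = 0.00448). At both probes the mean of CDK2 was higher with #1 than with #3, the reverse of CDK6, CCND1 and CCND3.

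CDC25A removes inhibitory phosphates from CDK2 and is one of the genes that E2F induces. Its promoter is shown because it alone among the members' 8 promoters in the RefSeq table used, from 5 genes, held an E2F motif. It is given from position -84 to -1 from the start site (GRCh38.p14, chr3:48188418-48188501, minus strand), with the motif in capitals.
CDC25A: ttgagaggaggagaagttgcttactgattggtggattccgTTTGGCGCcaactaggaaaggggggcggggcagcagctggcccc
The words searched for on both strands were TTTCCCGC, TTTGGCGC, TTTCGCGC and TTTGCCGC. They occurred in 3.31% of the 35116 promoters. The match began at position -44. The CCNE1, CDK4, CDK6 and CCND3 promoters in the table held none of these words in the 300 bases examined, which says nothing on whether E2F binds there. The CRE word TGACGTCA, the AP-1 word TGACTCA and the CHR word TTTGAA (in 1.85%, 4.95% and 15.2% of all promoters) were in none of the 8 either, and CATGTG (11.1%) was found once, in CDK4.

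In its mRNA CDC25A was the only member to pass against siNEG with both siRNAs. Probe ILMN_1711005 gave -0.11, -0.01, 0.04 and -0.04 in siNEG. With #1 it gave -0.36, -0.14, -0.33 and -0.33, and with #3 it gave 0.34, 0.46, 0.23 and 0.27. The 3 groups did not overlap, with #1 lowest and #3 highest. CDC25A at this probe was lower with #1 (-0.26 ± 0.07 log2, SE, limma adjusted p = 0.0162) and higher with #3 (0.35 ± 0.07, adjusted p = 0.00304), and the siRNAs differed by -0.61 ± 0.07 (adjusted p = 7.3e-07). The fall with #1 did not pass without siNEG replicate 3 (adjusted p = 0.0588) or without #1 replicate 1, 3 or 4 (0.0602, 0.0532 and 0.053).

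Probe ILMN_1733396 of CDC25A gave -0.19, -0.09, 0.01 and -0.04 in siNEG, -0.10, -0.22, -0.04 and -0.16 with #1, and 0.20, 0.07, 0.36 and 0.20 with #3. Here #3 lay above both other groups, which overlapped. CDC25A was higher with #3 (0.29 ± 0.07 log2, SE, limma adjusted p = 0.0216), did not pass with #1 (-0.05, adjusted p = 0.854), and differed between the siRNAs by -0.34 ± 0.07 (adjusted p = 0.00198). The rise with #3 at this probe did not pass without siNEG replicate 1 or 2 (adjusted p = 0.0664 and 0.0592) or #3 replicate 1, 3 or 4 (0.0534, 0.109 and 0.0532), and that at ILMN_1711005 passed under all 20 alternatives (highest adjusted p = 0.0186). Both probes thus placed CDC25A higher with #3, and of the 2 only ILMN_1711005 passed with #1. With 1 value per gene, the mean of both probes, CDC25A was lower with #1 (-0.16, limma adjusted p = 0.0431) and higher with #3 (0.32, adjusted p = 0.000551). That mean is 1 of the 20 alternatives.

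**Figure D2:**
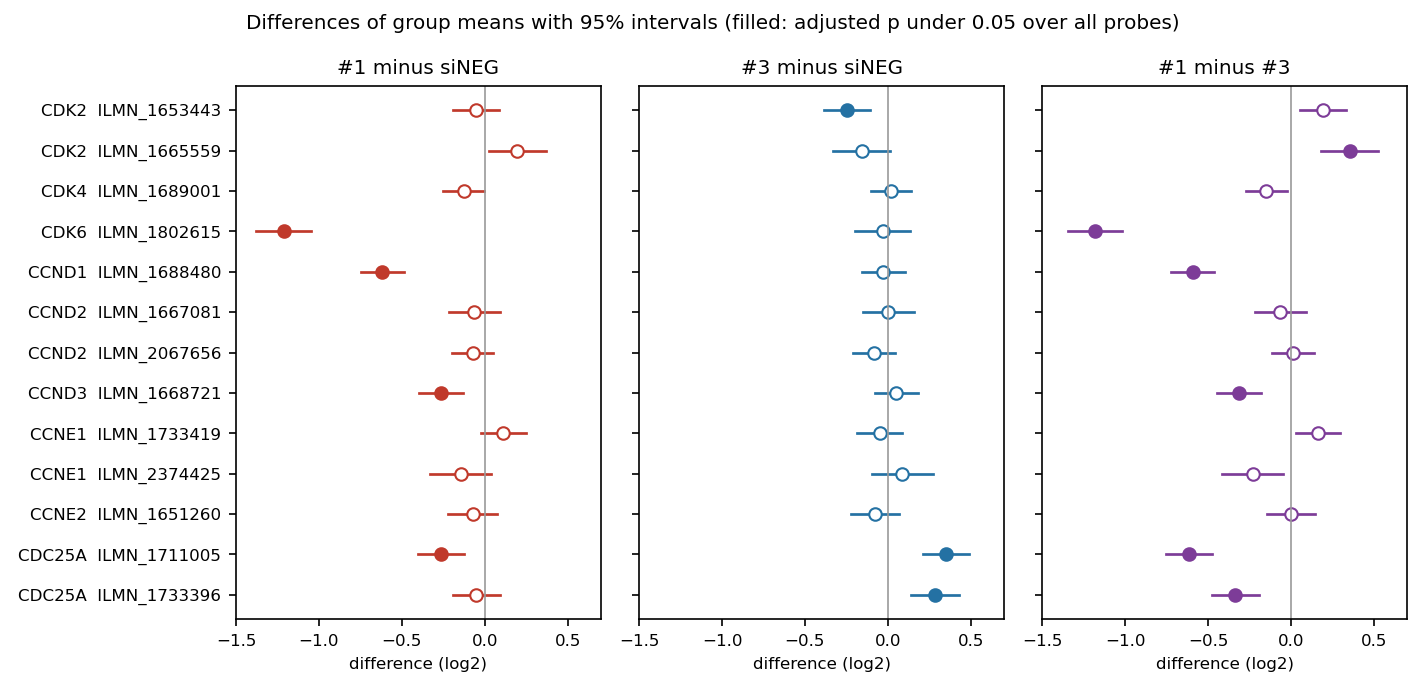
Differences of group means in log2 (x axis) for each of the 13 probes, with 95% intervals from limma, for #1 minus siNEG (red), #3 minus siNEG (blue) and #1 minus #3 (purple); filled points have an adjusted p under 0.05 over all 47315 probes. CDK6 lies near -1.21 with #1 and near 0 with #3, and CDC25A lies on opposite sides of 0 with the 2 siRNAs at ILMN_1711005.

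Counted over the members, 4 of 13 probes passed with #1, all lower (CDK6, CCND1, CCND3 and 1 of CDC25A), against 6.04% of all probes called in that comparison, 3.25% lower and 2.79% higher. The count fell to 2 without #1 replicate 4 and rose to 5 without #1 replicate 2. The median difference of the members was -0.07 log2, beside 0.0013 for all probes. In 5 of 13 probes no #1 array overlapped with siNEG, against 9.19% of all probes. Every member probe had a gene symbol, unlike 17202 of all probes. Of the 30105 probes with 1 gene symbol, corrected on their own, 2707 were called with #1, 1177 with #3 and 3392 between the siRNAs.

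With #3 there were 3 calls of 13 probes, CDK2 lower and both CDC25A probes higher, against 2.54% of all probes, 1.2% lower and 1.34% higher. Only 1 call, the rise of CDC25A at ILMN_1711005, was left without siNEG replicate 1, siNEG replicate 2, #3 replicate 3 or #3 replicate 4. Non-overlap with siNEG was found in 4 of 13 probes (6.51% of all). The median was -0.03 log2, beside 9e-04.

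Between the siRNAs 6 of 13 probes passed, against 7.46% of all probes, 3.82% lower and 3.64% higher in #1. CDK6, CCND1, CCND3 and both CDC25A probes were lower with #1 than with #3, and CDK2 at ILMN_1665559 was higher. The 2 comparisons with siNEG share the control arrays, whereas in this one those arrays enter only through the shared estimate of the spread. In 7 of 13 probes the #1 and #3 arrays did not overlap (10.9% of all probes).

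Taking the 8 siCITED1 arrays as one group, as in the published design, 0 of 13 members passed limma, against 1.11% of all probes, and 3 had an unadjusted p under 0.05, against 9.59%. These were CDK6 (-0.62 ± 0.25 log2, SE, n = 8 against 4, limma adjusted p = 0.397), CCND1 (-0.32 ± 0.13, adjusted p = 0.399) and CDK2 at ILMN_1653443 (-0.15 ± 0.07, adjusted p = 0.486). In this model the difference between the siRNAs counts as error. As the average of the #1 and #3 contrasts, in which it does not, CDK6 and CCND1 did pass (adjusted p = 2.67e-06 and 0.000481) with the same differences, and neither average describes either siRNA.

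The patterns of the called probes were set beside those of all other named genes over the 12 arrays, which share treatments in groups of 4, so the correlations are given as descriptions. The genes most like CDK6 were BAIAP2L1 (r = 0.983, difference with #1 of -0.88 log2) and UBASH3B (r = 0.983, -0.62). Those most like CCND1 were FXYD5 (r = 0.984, -0.47) and CRIP2 (r = 0.98, -0.585), and those most like CCND3 were SELENOM (r = 0.98, -0.32) and EIF5A2 (r = 0.962, -0.40). For CDC25A they were DENND5B (r = 0.971) and ZNF704 (r = 0.962) at ILMN_1711005, and PRPF38A (r = 0.973) and AGMO (r = 0.956) at ILMN_1733396. DENND5B was at -0.67 with #1 and 0.505 with #3. For CDK2 at ILMN_1653443 they were GRPEL1 (r = 0.935) and TGOLN2 (r = 0.934).

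Genes that act on the G1 kinases or downstream of them were counted from lists, a gene counting as higher or lower where at least 1 of its probes passed. Among 21 E2F target genes of the G1/S transition, most of them for the replication machinery and its nucleotides, 16 were lower with #1. None was higher and 5 did not pass. The calls were 62.5% of this list's probes, against 6.04% of all probes. Of the 16, PCNA passed at 1 of 3 probes, SLBP at 1 of 2 and MCM7 at 2 of 3. GINS2, part of the replicative helicase, was 2.31-fold lower (-1.21 ± 0.07 log2, SE, limma adjusted p = 4.28e-11), TK1, the thymidine kinase, was at -0.80 and CDC45, a helicase factor, at -0.78. The list's median was -0.41 with #1, beside 0.0013 for all probes. With #3, 3 of the 21 were lower (9.38% of probes, against 2.54% of all), CDC45 (-0.30, limma adjusted p = 0.00756), RRM2 (-0.55) and FEN1 at 1 of 2 probes (-0.23, adjusted p = 0.0487, the other at 0.106). The median was -0.07, and GINS2 gave -0.08 (limma adjusted p = 0.79). Between the siRNAs 14 of 21 were lower with #1 (56.2% of probes, against 7.46% of all). In a bulk sample, fewer cells in a phase of the cycle and less mRNA per cell cannot be told apart.

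The cyclins, kinases and phosphatases of S and M phase were lower with #1 in 10 of 10 genes (93.3% of their probes, against 6.04% of all), with a median of -0.54 log2. CCNB2, a mitotic cyclin, was at -0.70 ± 0.07 (SE, limma adjusted p = 2.6e-07) and CCNA2, the S phase cyclin that also binds CDK2, at -0.58 ± 0.09. With #3, 1 of 10 was lower, CKS1B, a small partner of CDKs, at 1 of its 2 probes (ILMN_1719256, -0.37, adjusted p = 0.0149). That call was 6.67% of the list's probes, against 2.54% of all. Between the siRNAs all 10 were lower with #1 (93.3% of probes, against 7.46% of all).

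Among the RB, E2F and DP factors 3 of 13 were lower with #1 and 1, RBL2, was higher (23.5% of probes, against 6.04% of all). With #3, 0 of 13 passed limma, against 2.54% of all probes. At an unadjusted p under 0.05 there were 2, with no share over all probes to set beside them. E2F7, a repressor of E2F targets, was at -0.36 ± 0.10 log2 (SE, limma adjusted p = 0.0356), E2F3, an activator, at -0.26 ± 0.07 (adjusted p = 0.0188), and 1 of 2 probes of RBL1, a pocket protein, at -0.26. E2F3 also differed between the siRNAs (-0.38, adjusted p = 0.000484). Of 7 CDK inhibitors 2 were higher with #1 (CDKN1C, and CDKN1B at 1 of 2 probes, adjusted p = 0.0388) and 2 lower (CDKN3, and CDKN2D at 1 of 2 probes, limma adjusted p = 0.0439). With #3, 2 were higher (CDKN1C, and CDKN1A at 1 of 2 probes) and 1 lower (CDKN3). The calls were 28.6% and 21.4% of the list's probes, against 6.04% and 2.54% of all. CDKN3, a phosphatase that acts on CDKs, was at -0.68 with #1 and -0.48 with #3 (adjusted p = 8.51e-06 and 0.00161).

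Of 14 genes for the turnover of G1 cyclins and CDC25A, 1 was higher and 2 were lower with #1, or 11.1% of their probes against 6.04% of all. With #3, 0 passed limma, against 2.54% of all probes. An unadjusted p under 0.05 was found for 2, with no share over all probes to set beside it. CHEK1, whose kinase marks CDC25A for destruction, was at -0.45 ± 0.07 log2 with #1 (SE, limma adjusted p = 0.000108) and 0.005 with #3, and CUL1, a ubiquitin ligase scaffold, was at -0.27 with #1. FBXW7, the ubiquitin ligase subunit that recognises cyclin E, was at 0.43 ± 0.09 with #1 at 1 of its 4 probes (ILMN_1754279, adjusted p = 0.00192), while the other 3 lay between 0.07 and 0.14 and did not pass. PKMYT1, which inhibits CDK1, was the 1 of 7 CDK-activating and inhibitory kinases that was lower with #1 (-0.61 and -0.29 log2). Its 2 probes were the only calls of this list, 20% of its probes against 6.04% of all. With #3, 0 of 7 passed limma, against 2.54% of all probes. An unadjusted p under 0.05 was found for 2, again with no share over all probes beside it.

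Of 18 genes listed as inputs to cyclin D transcription, 4 were higher with #1, each at a single probe: CTNNB1 at 1 of 7 (limma adjusted p = 0.0479), ETS1 at 1 of 2 (0.0344), MITF at 1 of 3 and MYC at 1 of 2. The 5 that were lower were EGR1, FOSL1, JUN, TBX2 and, at 1 of 2 probes, LEF1. With #3, CTNNB1 at 1 of 7 probes (0.45 log2, the other 6 from -0.05 to 0.19) and MITF at 1 of 3 were higher, and FOSL1 and LEF1 were lower. The calls were 25% of the list's probes with #1 and 13.9% with #3, against 6.04% and 2.54% of all. FOSL1, an AP-1 subunit, was lower with both (-0.54 ± 0.07 and -0.70 ± 0.07 log2, SE, limma adjusted p = 3.33e-06 and 1.79e-07). JUN, its partner, was lower with #1 (-0.48 ± 0.07, adjusted p = 5.36e-05), gave 0.22 with #3 (adjusted p = 0.112) and differed between the siRNAs (-0.70, adjusted p = 1.94e-07). MITF, the melanocyte regulator, was higher with both at 1 of its 3 probes (ILMN_2304186), at 0.49 and 0.50 log2, and the siRNAs differed there by -0.01 ± 0.08 (limma adjusted p = 0.983).

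**Figure D3:**
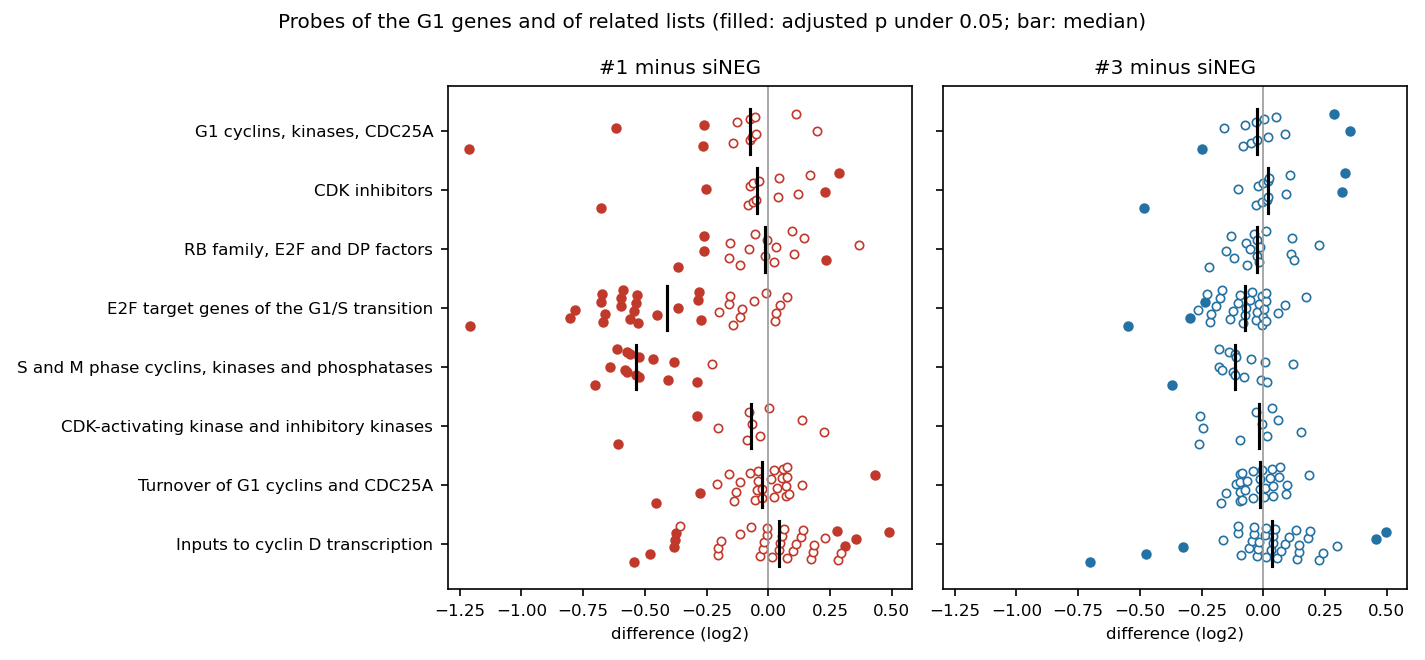
Differences from siNEG in log2 (x axis) for every probe of the G1 cyclins, their kinases and CDC25A and of 7 related gene lists (rows), with #1 (red, left) and #3 (blue, right); filled points have an adjusted p under 0.05, the black bar is the row's median and the height within a row has no meaning. With #1 the E2F targets and the genes of S and M phase are centred near -0.41 and -0.54, and with #3 near -0.07 and -0.11.

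Because values are centred, the melanocyte identity of the cells cannot be read from a level. Among 8 melanocyte lineage genes 5 were higher with #1 (MITF, MLANA, PMEL, TYR and TYRP1) and 3 with #3 (MITF, MLANA and TYR). MITF passed at ILMN_2304186 only. The calls were 38.5% of the list's probes with #1 and 23.1% with #3, against 6.04% and 2.54% of all. PMEL, a melanosome protein, was at 0.98 log2 with #1 (limma adjusted p = 2.2e-07) and did not pass with #3 (-0.20, adjusted p = 0.458). Of 16 markers of other cell types 1 was higher with both siRNAs, ACTA2 (0.54 with #1), and 1 was lower with #3, CD68, at 1 of 3 probes. The calls were 3.45% of these markers' probes with #1 and 6.9% with #3, against 6.04% and 2.54% of all. Of 12 housekeeping genes 0 passed limma with #1, against 6.04% of all probes. With #1, 3 had an unadjusted p under 0.05, with no share over all probes to set beside it. With #3, 2 were lower, HPRT1 (-0.34) and PGK1 (-0.30), at 1 of 2 probes each. The housekeeping calls with #3 were 11.1% of the list's probes, against 2.54% of all. The part of these in the members' differences was not tested.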

How the data were processed

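The authors quantile normalized the raw intensities and removed control probes in BASE, then took log2 values and centred them on each gene and sample in MeV. How background was treated, any detection filter and the software versions were not given in the sources used here. In the deposited log2 values, probe means lay within 1.33e-07 and array means within 1.43e-05 of 0. That the logarithm has base 2 is taken from the methods. Values were used as deposited, with no filter. Arrays have no read depth, and their number limits precision.

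Probes took the platform annotation's symbols, updated by Entrez ID: 30105 probes had 1 symbol, 8 several and 17202 none, and all stayed in the tests. Every probe was fitted in limma 3.58.1 (R 4.3.3) with 3 groups, or with the 8 siCITED1 arrays as one group as in the methods. SAM, which the methods used, was not run. Two-sided p-values were corrected per comparison over all its probes (Benjamini-Hochberg), at a threshold of 0.05. Errors are SEs for differences and SDs for groups. Exact permutation tests were two-sided over 70 or 495 assignments. The fit was tested on simulated data.

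Every member probe was named. From each of 10 other lists up to 3 genes with the largest change past the threshold were named, with CITED1 and MITF. MYC, PCNA, SLBP, MCM7 and genes named to spell out a count of 5 or fewer were chosen after their values were seen. For called member probes the 2 genes with the highest Pearson r over the 12 arrays were added. Of 133 list entries 126 matched a probe. Members and lists were chosen with earlier results of these data known. Promoters came from RefSeq, of GRCh38.p14, 250 bases before to 50 after a start site, for 5 of the 9 genes. The alternatives were a replicate block, quantile normalization, arrays scaled to one SD, array weights, robust empirical Bayes, named probes only, 1 value per gene, each array left out, the average of both contrasts, and fits of 8 arrays alone.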

Additional observations from a re-analysis of the deposited data

Results flagged for a closer look

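The siRNAs differed from each other at 6 probes of the G1 genes by the contrast of #1 minus #3 (limma, n = 4 against 4). The differences were -1.182 log2 for CDK6, -0.591 for CCND1, -0.314 for CCND3, -0.614 and -0.336 for CDC25A at ILMN_1711005 and ILMN_1733396, and 0.354 for CDK2 at ILMN_1665559. All of these passed under each of the 19 alternatives tried.

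Within groups, 2 of 39 sets of 4 arrays had a single array far from the other 3, and chance alone sets apart about 1 group in 20. CDK4 with #1 was at -0.144 in replicate 4, with the others between -0.08 and -0.067. CDC25A at ILMN_1711005 with #1 was at -0.145 in replicate 2, with the others between -0.362 and -0.332. Without #1 replicate 2 this CDC25A probe was at -0.31 with #1 (limma adjusted p = 0.00574).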

How the results depend on the processing

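Over 1027 values of a member probe under an alternative, 962 kept their direction and their side of the threshold, 24 lost a call, 7 gained one and 34 changed sign without a call on either side. No called value changed sign. In the fit to 1 value per gene, the mean of a gene's probes stood in for each of them. The calls of CDK6 and CCND1 with #1, of CDC25A at ILMN_1711005 with #3 and of 6 probes between the siRNAs were kept throughout. Leaving out 1 array gave between 2 and 5 member probes called with #1, between 1 and 3 with #3, between 6 and 7 between the siRNAs and 0 in the pooled comparison. With 1 value per gene the number with #3 was 1 gene, CDC25A, in place of 2. The average of the #1 and #3 contrasts gave 2 in place of 0. Arrays were not paired by replicate number, since deviations at the same number correlated only between -0.054 and 0.098, and in 3 of 12 cases was the own number the best match. With a replicate block the counts were 4 with #1, 2 with #3, 6 between the siRNAs and 0 pooled. CDK2 at ILMN_1653443 lost its call with #3 under the block (adjusted p = 0.0575), under array weights (0.0527), with 1 value per gene (0.0681) and in the fit of 8 arrays alone (0.0654). The cause was not tested. The 4 arrays a group limit the precision, and centred values give no signal over background.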
